A study of Apis mellifera with 12 samples.

Results

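The let-7 complex of the honey bee (Apis mellifera) comprises 3 microRNAs (miRNAs), ame-let-7, ame-miR-100 and ame-miR-125, called let-7, miR-100 and miR-125 here. They were chosen by name, as an ecdysone-linked gene cluster of insects, and all 3 were found on all 12 arrays and in the deposited value table. Each is probed by 18 spots, so that they take 54 of the 3024 miRNA spots of an array, and each has 216 spots over the series. The brains came from workers injected when newly emerged with 2 µL of double-stranded RNA at 10 µg/µL and sampled at 15 days of age. The 6 knockdown pools (dsVg) had received dsRNA against vitellogenin, the yolk precursor that in workers is tied to juvenile hormone and to the pace of behavioural maturation. The 6 control pools (dsGFP) had received dsRNA against a jellyfish protein, GFP, with no bee counterpart, so both groups carried injected dsRNA. A pool held 1 µg of small RNA, 200 ng from each of 5 bees, and was hybridized to an array of its own. Source names describe the bees as foragers, and the characteristics give only their age. Injection was into the abdomen, and vitellogenin mRNA was not analysed here.

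In flies, let-7, miR-100 and miR-125 are cut from 1 primary transcript whose production rises with pulses of the moulting hormone ecdysone. There let-7 and miR-125 are known for timing neuronal fate and the remodelling of muscle and nerve at metamorphosis, and let-7 keeps acting in the adult nervous system. A miRNA finds its targets mainly through the seed, bases 2 to 8, so members of a shared transcript can still act on different messages. In the RefSeq gene table of assembly Amel_HAv3.1, which pairs all 3 names with a gene, they are neighbours in the order miR-125, let-7, miR-100, and 0 other listed genes overlap the span.

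The target sequences printed in the scanner files are shown because the seeds separate the members, with the seed in capitals.
let-7: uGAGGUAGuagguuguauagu
miR-100: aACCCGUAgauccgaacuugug
miR-125: cCCCUGAGacccuaacuuguga
The 3 seeds differ, and 0 other miRNAs on the array carry any of them. The let-7 target is 21 bases long with a GC content of 38.1%, against 22 bases and 50% for miR-100 and 22 bases and 54.5% for miR-125. The median GC content of all miRNA targets on the array was 45.5%.

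Outside the seeds, miR-100 and miR-125 end almost alike. The capitals below mark the longest run of bases that both share.
miR-100: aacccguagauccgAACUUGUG
miR-125: ccccugagacccuAACUUGUGa
This run is 8 bases long. Of the 14028 pairs of array targets, 0.691% share a run of 8 bases or more, and the median longest run is 4 bases. The longest run that let-7 shares with either partner is 4 bases. A longer match joins miR-100 to miR-10, a miRNA of the Hox gene region in insects, with 11 shared bases in capitals.
miR-100: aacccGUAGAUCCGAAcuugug
miR-10: acccuGUAGAUCCGAAuuugu
The miR-10 probe was above the empty spots on only 4 of 12 arrays and was not tested (raw intensities of 85.8 to 348). miR-125 also shares 8 bases with miR-3785. Whether related RNAs bind each other's probes was not tested.

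Before any correction, the intensity of let-7 ran from 527 (dsVg pool 1) to 4898 (dsVg pool 3), that of miR-100 from 408 to 1551 in the same pools, and that of miR-125 from 581 (dsGFP pool 6) to 2696.5 (dsVg pool 3). All 3 miRNAs were above the 95th percentile of the 608 empty spots on all 12 arrays, the rule used here to call a miRNA detected. On dsVg pool 1 every miRNA probe met this rule, and on dsGFP pool 1 165 did, so it does not set the members apart there. The margin differed between arrays. The let-7 intensity was 54.6 times that percentile in dsGFP pool 3, 35.2 times in dsVg pool 3 and 1.62 times in dsVg pool 1. For miR-100 the ratio was 1.26 in dsVg pool 1, 1.34 in dsVg pool 5 and 12.6 at its highest, and for miR-125 it ran from 2.41 in dsVg pool 1 to 24.5. The signals of let-7 and miR-100 thus came nearest to the empty spots in dsVg pool 1.

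**Figure D1:**
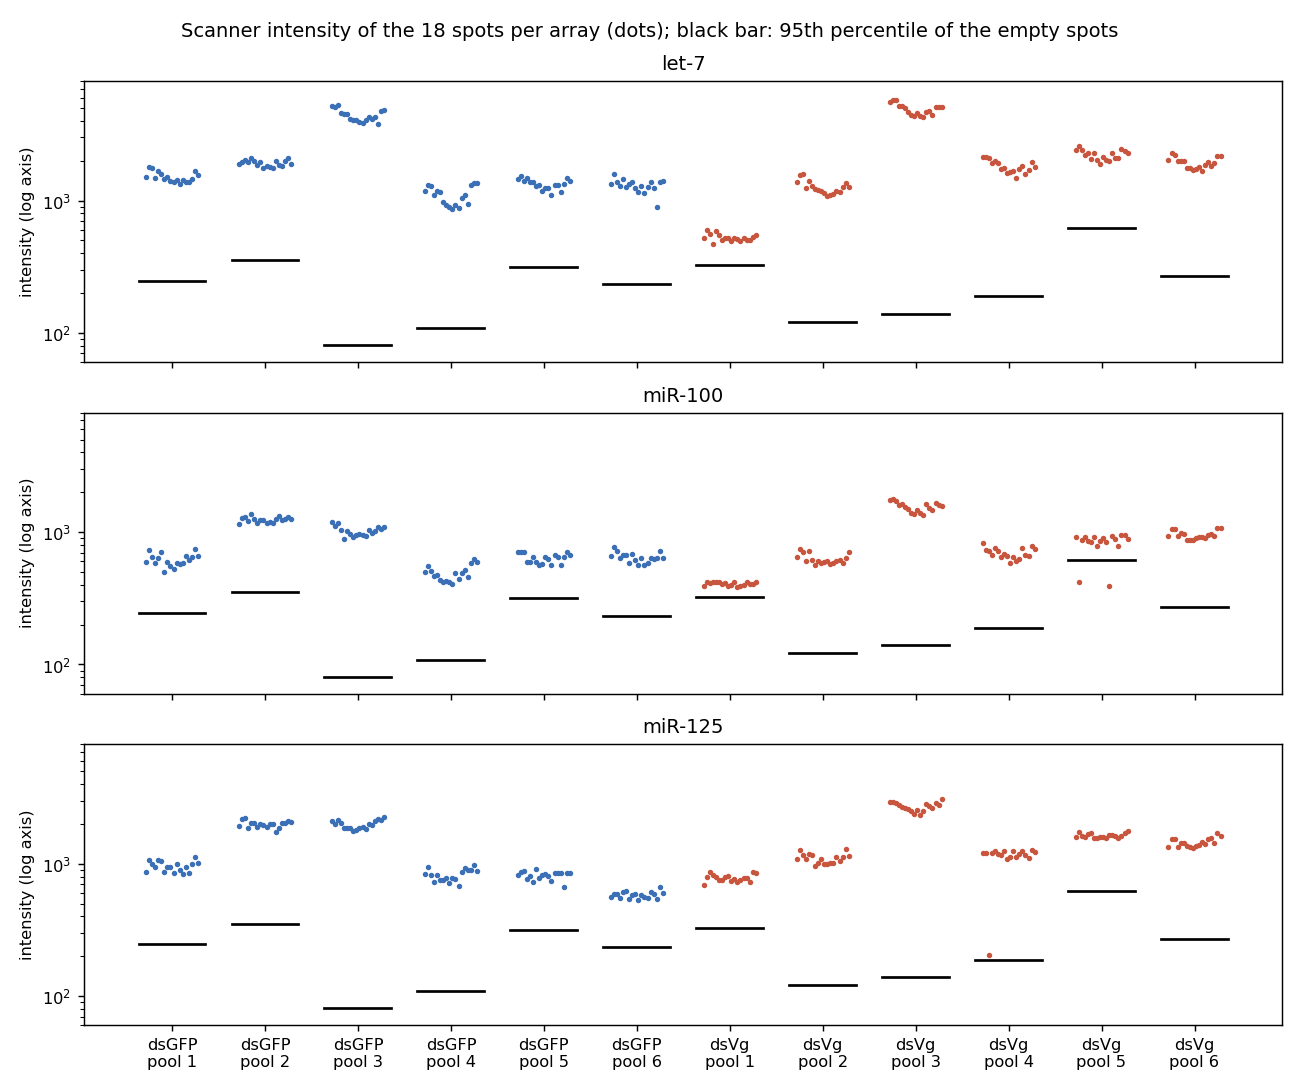
Scanner intensity (log axis) of the 18 spots of each miRNA on each of the 12 arrays, 1 dot per spot, blue for dsGFP and red for dsVg pools, with a black bar at the 95th percentile of the empty spots. The spots of an array lie close together compared with the distance between arrays. let-7 and miR-100 come nearest to the bar in dsVg pool 1, apart from 2 dim miR-100 spots in dsVg pool 5, which lie below it.

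Spots of 1 array repeated well. The coefficient of variation over 18 spots had a median of 9.61% for let-7, 8.56% for miR-100 and 7.48% for miR-125. Its highest value was 16.1% for let-7, 19.5% for miR-100 (dsVg pool 5) and 21.0% for miR-125 (dsVg pool 4). In the last 2 cases single dim spots stood out, 2 miR-100 spots at 420 and 392 against a median of 879 and 1 miR-125 spot at 206 against a median of 1197. The 2 miR-100 spots lay below the 95th percentile (621) and the median (478) of the empty spots of their array. The standard error of a probe's mean over spots was typically 0.032, 0.029 and 0.026 on the log2 scale of the uncorrected intensities. It treats the 18 spots as independent. The SD between pools within a group, taken after background correction and quantile normalization, was 15.5, 9.85 and 15.1 times larger. The 2 measures are thus on unlike scales.

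The arrays were not all alike. On 6 of them (dsGFP pools 1, 3 and 4 and dsVg pools 1, 2 and 3) at least 97 miRNAs counted as detected and on the other 6 between 34 and 60. Both kinds of array hold 3 dsGFP and 3 dsVg pools. The intensities of dsVg pool 5 are all whole numbers, and the header of dsGFP pool 1 names a median where the others name a mean. The brain miRNAs miR-124, miR-276 and miR-2796, which mark the labelled tissue, were detected on all 12 arrays. Signals of miRNAs known from neighbouring tissues were present too. The summed signal of miR-1 and miR-133 (muscle, 1 of 2 detected on 12 arrays) ran from 574 to 1310 in dsGFP and 517 to 1231 in dsVg pools. That of miR-7, miR-263 and miR-263b (eye and sensory organs, all 3 detected on 12 arrays) ran from 5933 to 13948 and 4421 to 11669. That of miR-375, miR-275, miR-989 and miR-750 (gut, fat body and epithelium, 1 of 4 detected on 12 arrays) ran from 1280 to 1922 and 1333 to 3845. None of these markers passed the adjusted limma threshold. An unadjusted limma p under 0.05 was found for 1 muscle and 2 gut markers. These 3 were the only ones of all 84 tested miRNAs (3.57%) with such a p. The part of these markers in the results was not tested.

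The question of the study was whether lowering vitellogenin changes brain miRNAs. Signals were background-corrected, averaged over spots, quantile-normalized on the log2 scale and compared with limma over all 84 miRNAs that were detected on at least 6 arrays. None of the 3 members passed the test of a difference between the groups. The count was 0 of 3 at an adjusted p under 0.05, as for all 84 (0%), and 0 of 3 at an unadjusted p under 0.05, where 3.57% of the 84 passed by limma and 3.57% by the exact permutation test. The differences were negative for let-7 and miR-100 and positive for miR-125, while 53.6% of all tested miRNAs had positive and 46.4% negative differences. Their median was -0.07, against 0.03 for all 84. In such pools, fewer cells of a type and less RNA per cell cannot be told apart.

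The signal of let-7 had a lowest, median and highest value of 9.95, 10.63 and 11.34 in the dsGFP pools and of 9.80, 10.52 and 11.34 in the dsVg pools. The groups overlapped almost completely, with dsVg pool 1 lowest, dsVg pool 5 level with dsGFP pool 3 at the top, and 5 of 6 dsVg pools below the dsGFP mean. The means were 10.67 ± 0.50 and 10.54 ± 0.50 (SD, n = 6 pools each), a difference of -0.13 (SE 0.27, limma adjusted p = 0.875, exact permutation p = 0.662). Its 95% interval ran from 0.606-fold to 1.37-fold. The sign rested on single pools, since the difference was 0.0015 without dsGFP pool 3 and 0.014 without dsVg pool 1.

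miR-100, which lies beside let-7 in the genomes of many animals, had the smallest spread of the 3 after quantile normalization. Its within-group SD was 0.28 against 0.50 for let-7 and 0.39 for miR-125 (median of the 33 miRNAs detected on all arrays, 0.49). This order depended on the scaling, since the SE of the difference without normalization was 0.43 for miR-100 and 0.42 for miR-125. The lowest, median and highest miR-100 signals were 9.08, 9.27 and 9.48 in the dsGFP pools and 8.54, 9.27 and 9.58 in the dsVg pools. The medians coincided, and the pool that stood apart was dsVg pool 1, below all other pools. The means were 9.27 ± 0.14 and 9.20 ± 0.37 (SD, n = 6 each), a difference of -0.07 (SE 0.16, limma adjusted p = 0.875, exact permutation p = 0.764, 95% interval 0.748-fold to 1.21-fold). Without dsVg pool 1 it was 0.062, and without dsVg pool 5, which had the highest miR-100 signal, it was -0.14.

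The signal of miR-125, the counterpart of the lin-4 miRNA of nematodes, was 9.20, 9.94 and 10.25 (lowest, median, highest) in the dsGFP pools and 9.80, 9.97 and 10.75 in the dsVg pools. Here dsGFP pool 6 lay below all others and dsVg pools 5 and 1 lay above all others, while the other 9 pools mixed between 9.80 and 10.25. The means were 9.91 ± 0.39 and 10.15 ± 0.39 (SD, n = 6 each), a difference of 0.24 (SE 0.21, limma adjusted p = 0.772, exact permutation p = 0.325, 95% interval 0.856-fold to 1.63-fold). It was 0.096 without dsGFP pool 6 and 0.12 without dsVg pool 5. The place of dsVg pool 1 depended on the scaling. Before normalization its miR-125 signal was 9.13, above only that of dsGFP pool 6 (8.81).

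**Figure D2:**
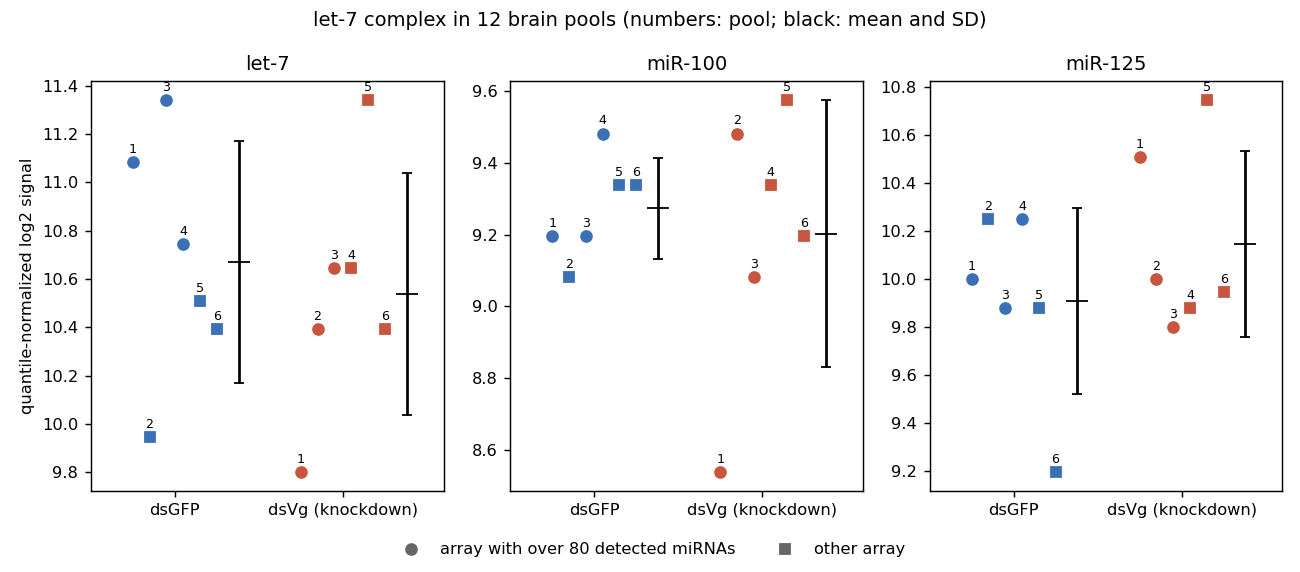
Quantile-normalized log2 signal of let-7, miR-100 and miR-125 (vertical axes with a scale for each panel) in the 6 dsGFP and 6 dsVg pools, numbered by pool, with the mean and SD in black; circles are arrays with over 80 detected miRNAs and squares the other arrays. The groups overlap for each miRNA, with dsVg pool 1 lowest for let-7 (9.80) and miR-100 (8.54) and dsGFP pool 6 lowest for miR-125 (9.20).

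The authors' deposited table of processed intensities gave the same picture on its linear scale. For let-7 it listed 551 to 1703 (median 1111.5) in dsGFP and 502 to 1639 (median 880.5) in dsVg pools, with means of 1106 ± 389 and 945 ± 385 (SD, n = 6). For miR-100 it listed 291 to 394 (median 333) and 182 to 497 (median 323.5), with means of 335 ± 39.4 and 323 ± 113. For miR-125 it listed 308 to 699 (median 583.5) and 448 to 1121 (median 636.5), with means of 554.5 ± 135 and 733.5 ± 281. As in the scanner data, dsVg pool 1 was lowest for let-7 and miR-100 and dsGFP pool 6 was lowest for miR-125. At the top, dsGFP pool 3 led for let-7, dsVg pool 5 for miR-100 and dsVg pools 1 and 5 for miR-125. On log2(value + 1) the deposited differences were -0.24, -0.12 and 0.36 for let-7, miR-100 and miR-125, with limma adjusted p of 0.760, 0.867 and 0.648.

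The scaling between arrays changed these differences and their intervals. Scaling to the median of all miRNA probes gave -0.12 for let-7 with a 95% interval of -1.64 to 1.41 on the log2 scale, against -0.72 to 0.46 after quantile normalization. Scaling to the 75th percentile of the 33 probes detected on all arrays gave -0.52 for let-7, -0.46 for miR-100 and -0.09 for miR-125, so that the sign of miR-125 turned. That scaling moved the median difference of all 84 miRNAs to -0.31, from 0.03 after quantile normalization, and left 14.3% of them positive instead of 53.6%. Without normalization the differences were -0.06, -0.0057 and 0.37, with a median of 0.15 and 79.8% positive for all 84, and with median scaling 70.2% were positive. Relative to the median of all 84, the 3 members (let-7, miR-100, miR-125) lay at -0.16, -0.10 and 0.21 after quantile normalization, and at -0.21, -0.16 and 0.22 under each of the scalings by a single factor and without normalization. With cyclic loess these values were -0.34, -0.20 and 0.12, and in the deposited table -0.32, -0.21 and 0.28. A single factor per array shifts all 84 differences equally, so the values under those scalings and without normalization had to be identical. They are not separate tests of the direction. In that shared result let-7 and miR-100 lay below and miR-125 above the median. The same held after quantile normalization, in the deposited values and after cyclic loess. Whether it held with single pools left out was not tested.

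**Figure D3:**
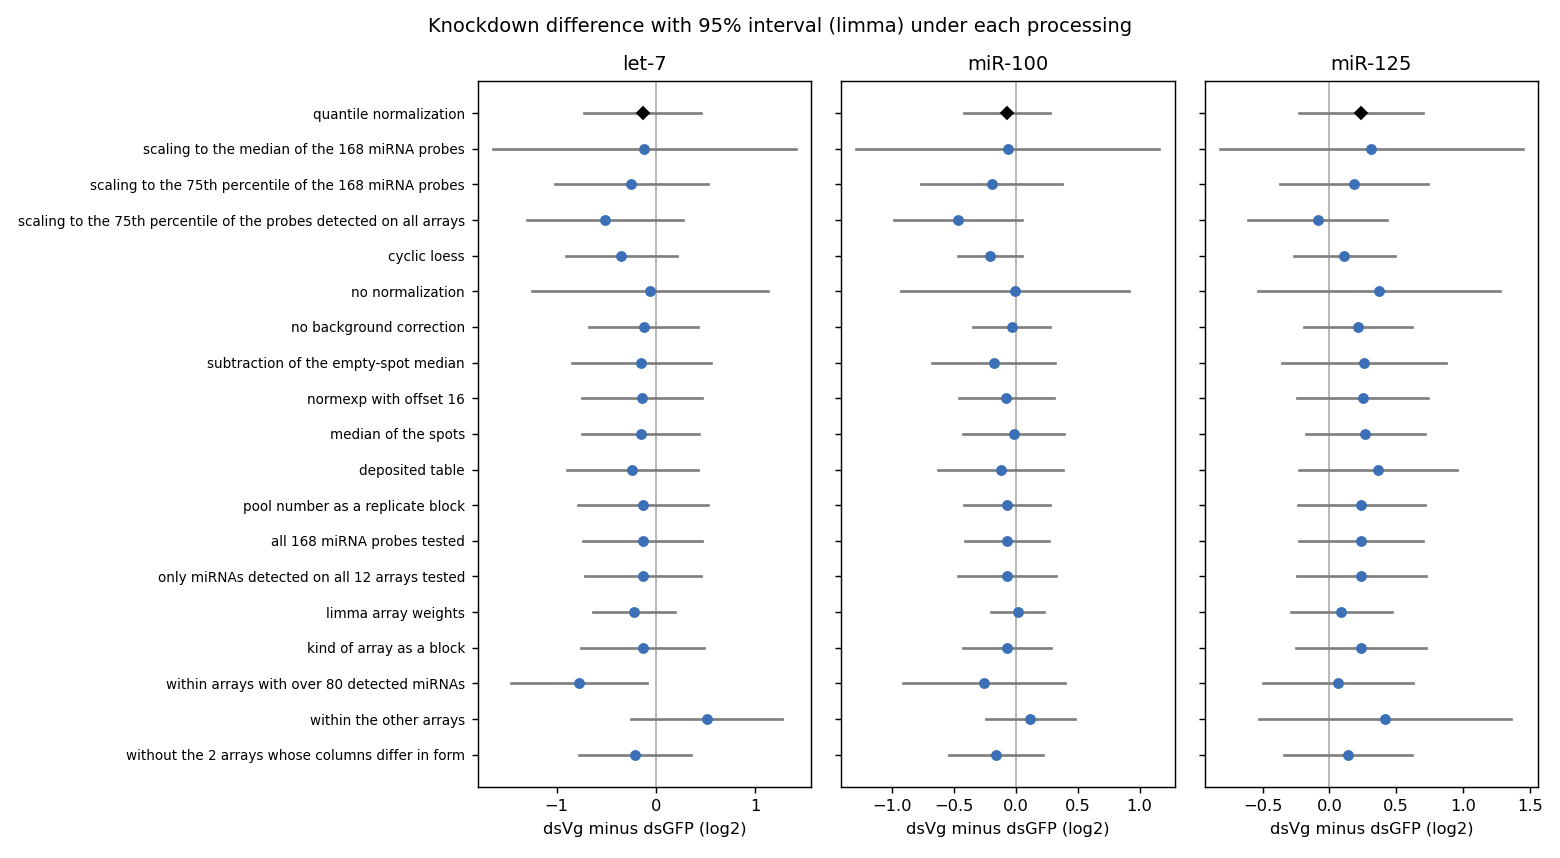
Difference dsVg minus dsGFP on the log2 scale (points; diamond for quantile normalization) with limma's 95% interval (bars) under 19 processing settings, for each miRNA. Of the 57 intervals, 56 include 0; the exception is let-7 within arrays with over 80 detected miRNAs (-1.46 to -0.09).

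Among the 3 members, the differences within the 2 kinds of array lay farthest apart for let-7. Within the arrays with over 80 detected miRNAs, the dsGFP pools stood at 10.75, 11.08 and 11.34 and the dsVg pools at 9.80, 10.39 and 10.65. All 3 dsVg pools lay below all 3 dsGFP pools, a difference of -0.78 (exact permutation p = 0.10, the smallest that 3 against 3 pools allow). Of the 84 tested miRNAs, 4.76% had groups that did not overlap on these arrays, and 3.57% lay lower in this way in dsVg. Within the other arrays the order was opposite, with dsGFP at 9.95, 10.39 and 10.51 and dsVg at 10.39, 10.65 and 11.34, a difference of 0.51 (exact permutation p = 0.30). These groups overlapped, while 15.5% of the 84 had groups that did not overlap on these arrays, 7.14% with dsVg lower. The 2 differences stood 1.29 apart (SE 0.43, limma interaction adjusted p = 0.835 over 84 miRNAs). This was the smallest unadjusted interaction p of the 84 (limma, 0.0128), where 3.57% had one under 0.05 and 0% an adjusted one. For miR-100 the differences within the 2 kinds were -0.26 and 0.12 (interaction adjusted p = 0.900 by limma), and for miR-125 they were 0.06 and 0.42 (adjusted p = 0.900).

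Members of a shared transcript invite the question of whether their signals vary together between pools. Over all 12 pools, let-7 and miR-100 gave a Pearson r of 0.57 (permutation p = 0.0507) and a Spearman rho of 0.43 (permutation p = 0.163). For let-7 and miR-125 r was 0.05 (permutation p = 0.881, rho = -0.04, permutation p = 0.904), and for miR-100 and miR-125 it was -0.13 (permutation p = 0.658, rho = 0.11, permutation p = 0.736). Adjusted over the 246 relations of a member with any other tested miRNA, the p-values of r were 0.313, 0.959 and 0.852, and those of rho 0.563, 0.968 and 0.909. None of the 3 pairs passed, and 0 of 246 relations (0%) did by Pearson's r, with 15% at an unadjusted p under 0.05.

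The relation of let-7 to miR-100 leaned on dsVg pool 1, which was lowest in both. Without that pool r was 0.30. For a second pool there was a tie, since dsGFP pool 3 and dsVg pool 5 were equally far from the let-7 median. Without dsVg pool 1 and dsGFP pool 3, r was 0.48 for let-7 and miR-100 and 0.43 for let-7 and miR-125. Without dsVg pools 1 and 5 the same pairs gave 0.02 and -0.03, so the relation of let-7 to miR-100 rests on those 2 pools. For miR-100 and miR-125 r without dsVg pools 1 and 5, the farthest from the miR-100 median, was -0.03. In the control pools alone let-7 and miR-100 gave r = 0.12 (exact permutation p = 0.833, n = 6), and in the knockdown pools alone r = 0.81 (exact permutation p = 0.0778, n = 6). The difference between these 2 values was not tested. By kind of array, r was 0.55 (exact permutation p = 0.256, n = 6) on the arrays with over 80 detected miRNAs and 0.95 (exact permutation p = 0.0167, n = 6, adjusted p = 0.236 over 243 relations) on the others. In the latter, rho was 0.89 (exact permutation p = 0.0333, adjusted p = 0.432).

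The other pairs changed sign with the kind of array. On the arrays with over 80 detected miRNAs, r was -0.71 for let-7 and miR-125 (exact permutation p = 0.119, n = 6) and -0.50 for miR-100 and miR-125 (exact permutation p = 0.356, n = 6). On the other arrays the values were 0.49 (exact permutation p = 0.325) and 0.28 (exact permutation, adjusted p = 0.773). After quantile normalization, dsVg pool 1, one of the arrays with over 80 detected miRNAs, had the lowest let-7 and miR-100 signals of the series. Its miR-125 signal (10.51) was then below that of only 1 other pool. Without dsVg pool 1, r of miR-100 and miR-125 was 0.35 over the other 11 pools.

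**Figure D4:**
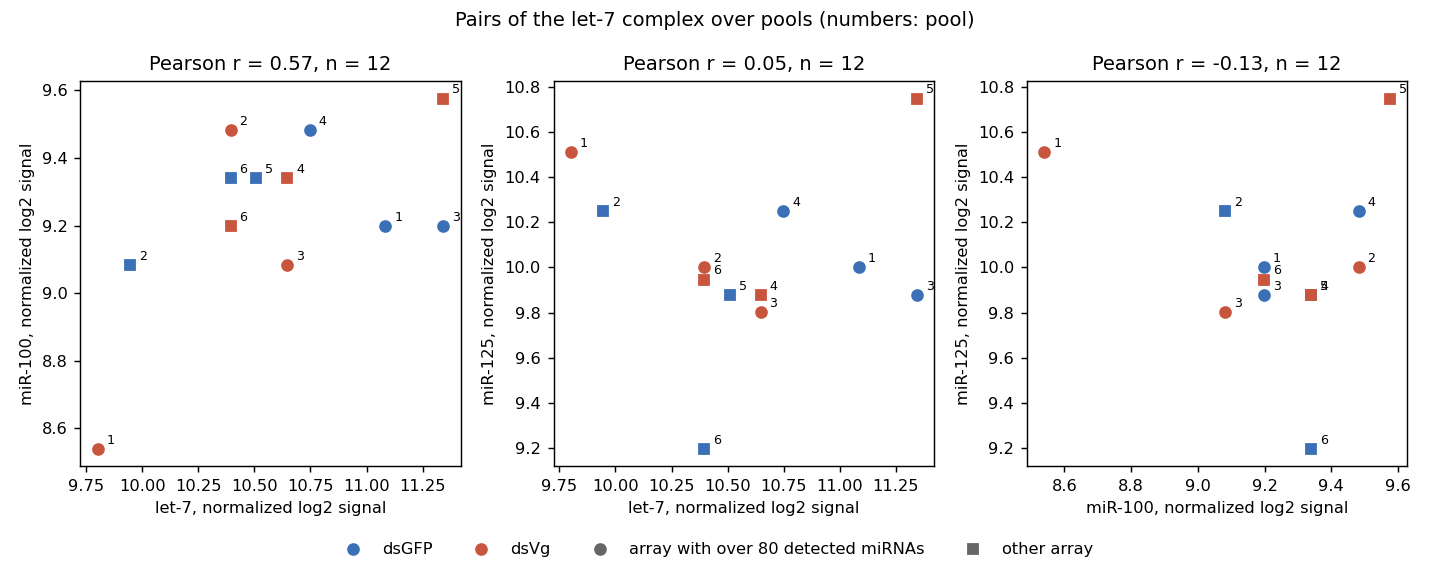
Normalized log2 signals of each pair of miRNAs over the 12 pools (numbered), blue for dsGFP and red for dsVg, circles for arrays with over 80 detected miRNAs and squares for the others. let-7 and miR-100 share a lowest pool, dsVg pool 1 (r = 0.57), while both pairs with miR-125 scatter without a common slope (r of 0.05 and -0.13).

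How closely the 3 miRNAs appear to vary together depended on the scaling. Without normalization r was 0.93 for let-7 and miR-100, 0.82 for let-7 and miR-125 and 0.85 for miR-100 and miR-125, and all 3 passed the threshold (permutation, adjusted p of 0.000703, 0.00406 and 0.00269 over 246 relations). The same held for scaling to the median (0.95, 0.88 and 0.90, each with a permutation adjusted p of 0.000154). How many of the 246 relations passed on these scales is not given here. Pairs of tested miRNAs in general had a higher r on these scales too. The median r over all 3486 pairs of tested miRNAs was 0.43 without normalization and 0.59 with median scaling, against 0.0030 after quantile normalization. Set against all pairs, 12.2% had a higher r than let-7 and miR-100 after quantile normalization, 3.84% without normalization and 14.3% in the deposited table (r = 0.55). For let-7 and miR-125 the shares were 46.1%, 14.5% and 51.0%, and for miR-100 and miR-125 they were 60.2%, 10.8% and 49.8%. The members were detected on all arrays, as were 33 miRNAs in all. Among the 528 pairs of those 33 after quantile normalization, the median r was 0.16. There 24.4% of pairs had a higher r than let-7 and miR-100, 56.25% than let-7 and miR-125, and 64.4% than miR-100 and miR-125. With median scaling, 2.5% of all pairs had a higher r than let-7 and miR-100, 10% than let-7 and miR-125, and 7.83% than miR-100 and miR-125. With cyclic loess, r was 0.22 for let-7 and miR-100, and 33.9% of all pairs were higher. Values of different miRNAs share an array, so these r are not free of it.

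**Figure D5:**
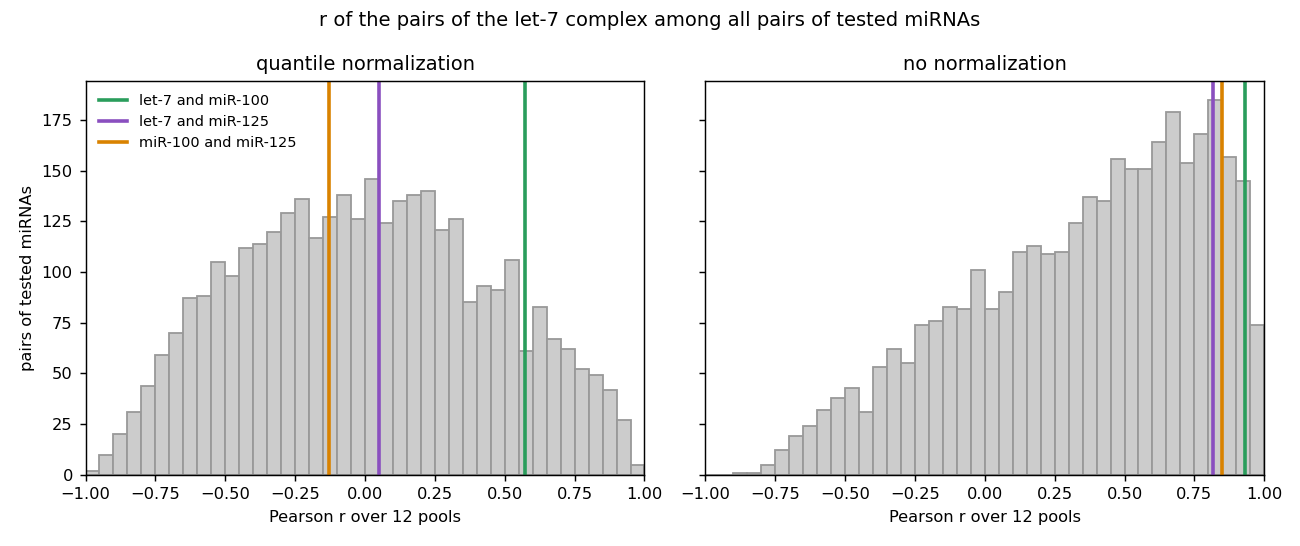
Number of pairs of tested miRNAs (vertical axis) by Pearson r over 12 pools (horizontal axis), after quantile normalization on the left and without normalization on the right, with coloured lines for the 3 pairs of the let-7 complex. On the left the pairs lie at 0.57, 0.05 and -0.13 among values centred near 0, and on the right at 0.93, 0.82 and 0.85 where most pairs are positive.

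The log2 difference between 2 members on the same array is unaffected by a scaling factor for that array, and its shift between the groups is given here as a description. Without normalization, the log2 difference of miR-125 over miR-100 was on average 0.38 higher in dsVg than in dsGFP pools, with an SD of 0.42 in dsGFP and 0.37 in dsVg (n = 6 each), and 6 of 6 dsVg pools lay above the dsGFP mean, against 4 of 6 after quantile normalization. The medians were close, at 0.77 and 0.84, and the extremes were dsGFP pool 6 at the low end (-0.19) and dsVg pool 1 at the high end (1.57). For miR-125 over let-7 the shift was 0.43 (SDs 0.52 and 0.63), and for miR-100 over let-7 it was 0.05 (SDs 0.47 and 0.41). The shifts were 0.31, 0.37 and 0.06 after quantile normalization and 0.49, 0.60 and 0.11 in the deposited table. The shift of miR-100 over let-7 was far inside the spread between pools, and the shifts with miR-125 were smaller than or close to 1 SD.

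For each member the 3 most similar patterns over the 12 pools among the 83 other tested miRNAs were taken. For let-7 they were miR-3741 (r = 0.82, permutation adjusted p = 0.141), miR-3751 (r = 0.77) and miR-263 (r = 0.70), the first 2 of them detected on only 6 arrays. Without normalization these likenesses to let-7 were 0.34, 0.59 and 0.97, where the median r of all pairs was 0.43. In the deposited table they were 0.69, 0.59 and 0.73. The miR-100 pattern had rank 10 in likeness to let-7. For miR-100 they were miR-2788 (r = 0.84, falling to 0.48 without 1 pool), miR-278 (r = 0.69) and miR-193 (r = 0.64, falling to -0.10 without the 2 pools farthest from the miR-100 median), and let-7 ranked 6. The likeness to miR-2788 was 0.98 on the arrays with over 80 detected miRNAs, -0.04 on the others and 0.36 in the deposited table. That to miR-193, detected on 6 arrays, was -0.26 without normalization and 0.51 in the deposited table, and that to miR-278, detected on 7 arrays, was 0.16 and 0.45. For miR-125 they were miR-210 (r = 0.79), miR-279c (r = 0.78) and miR-3049 (r = 0.76), each with a permutation adjusted p of 0.141. The likeness of miR-125 to miR-279c was the only one of the 246 (0.407%) to pass by Spearman's rho (0.90, permutation adjusted p = 0.0295). This rho did not pass in the deposited table (0.60, permutation adjusted p = 0.272) or for deviations from the group means (0.83, permutation adjusted p = 0.0861). It passed without normalization (0.78, permutation adjusted p = 0.0157), where pairs in general had a higher r (median 0.43). Its Pearson r, which did not pass, was 0.95 and 0.76 in the 2 kinds of array, 0.65 without normalization, below the upper quartile of all pairs there (0.70), and 0.74 in the deposited table. The miR-210 likeness was 0.86 and 0.81 in the 2 kinds of array, 0.67 without normalization and 0.80 in the deposited table.

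Other miRNAs tied to ecdysone in insects were set beside the complex. The list held miR-34, which ecdysone lowers in flies while let-7 rises, miR-14, which acts on the ecdysone receptor in flies, miR-8, which ecdysone represses in flies, bantam, which restrains ecdysone production in the fly, miR-252, which answers to ecdysone in flies, and miR-281, which targets a receptor isoform in the silk moth. All 6 were tested, 0 passed the limma threshold (0% of all 84), 2 had positive and 4 negative differences, and their median was -0.16 against 0.03 for all 84.

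miR-34 stood at 12.50 ± 0.42 in dsGFP and 12.77 ± 0.61 in dsVg pools (SD, n = 6), a difference of 0.28 that was positive under the other scalings too (0.44 to 0.90). miR-14 stood at 12.09 ± 2.38 and 10.54 ± 3.17, the widest spread of the list, from 7.43 to 15.28 over pools. Differences were -0.24 for miR-8 and -0.18 for bantam, which was 0.12 without dsVg pool 5. The difference of miR-252 was -0.13. Quantile normalization gave all pools but dsVg pool 3 the same highest value, so the test on these values could hardly show a difference. The miR-252 difference was positive without normalization (0.13) and with median scaling (0.07). It was negative in the deposited table (-0.44), with cyclic loess (-0.35) and with scaling to the 75th percentile of detected probes (-0.33). The difference of miR-281, detected on only 6 arrays, was 0.03. It was negative with median scaling (-0.000395), cyclic loess (-0.01) and scaling to the 75th percentile of detected probes (-0.40). The limma adjusted p-values of the 6 ran from 0.772 to 0.875.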

How the data were processed

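Per the file headers, each of the 12 scanner tables gives 1 linear intensity per spot, and the values still contain background. The authors' deposited table also holds intensity, as whole numbers; the sources used here do not give its normalization. Per the labels' protocols the dye was Cy3 alone. Intensities were corrected with normexp (offset 50) in limma 3.58.1 (R 4.3.3), the mean was taken over the log2 values of the 18 spots, and quantile normalization was applied across all miRNA probes. limma's two-sided test was adjusted by Benjamini-Hochberg over the 84 miRNAs detected on at least 6 arrays (mean above the 95th percentile of the empty spots). Exact permutation tests used the 924 assignments of pools, with a smallest p of 0.00216. Correlations used 100000 permutations, or all 720 orders within 6 pools (scipy 1.17.1, numpy 2.4.6). Both calculations were tested on simulated data. All 30 comparisons of 2 pools of the same group differed by more than spot noise (lowest chi-square/df 35.4). The labels do not say that pools hold different bees, so p-values measure the spread between these pools. The number of arrays limits the precision. Alternatives changed the scaling, background correction, filter, weights, block, kind of array and pools used. Members, lists and tests were chosen with earlier results of these data known. The miRNAs named are the 3 members, the ecdysone-linked list, miR-10 and the 3 tested miRNAs most like each member; tissue markers and miR-3785 are named besides.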

Additional observations from a re-analysis of the deposited data

Results flagged for a closer look

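In 38 groups of 6 pools (3 members and 16 other named miRNAs in 2 groups), 7 had a highest or lowest pool set apart from its neighbour by most of the group's range. The limit was Dixon's 95% critical value, which a single group passes by chance about 1 in 20 times. Some of these miRNAs were chosen for their likeness to a member, so the groups are not independent. The count of 7 therefore cannot be compared with that rate. Among the members, dsGFP pool 6 stood apart for miR-125, at 9.197 on the normalized log2 scale, the lowest of all 12 pools. Among the dsVg pools, pool 5 stood apart for bantam (9.083) and pool 3 for miR-252 (14.48, where quantile normalization gave all other pools the same highest value). Among the dsGFP pools, pool 4 stood apart for miR-210 (12.55) and miR-3049 (8.827), and pool 3 for miR-3741 (7.134) and miR-3751 (7.581).

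The knockdown difference of let-7 differed between the arrays with over 80 detected miRNAs and the other arrays by -1.288 (limma interaction, unadjusted p = 0.0128), and the adjusted p was 0.835 over 84 miRNAs.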

How the results depend on the processing

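The 3 knockdown differences were run under 30 alternatives each, and none passed the adjusted limma threshold (adjusted p from 0.516 to 0.999). With 1 pool left out, let-7 ran from -0.294 to 0.01434 (0.001527 without dsGFP pool 3), miR-100 from -0.1449 to 0.06238 and miR-125 from 0.09608 to 0.3076. Signs also turned for let-7 and miR-100 within the other arrays (0.5113 and 0.117), for miR-100 with array weights (0.01496) and for miR-125 under scaling to the 75th percentile of detected probes (-0.08728). The number of miRNAs with an adjusted p under 0.05 was 0 throughout, also with 1 pool left out (0 to 0), except for 1 with array weights, the gut marker miR-375, named after its values were seen; at an unadjusted limma p under 0.05 it was 3, and 1 to 12 over the alternatives. Same-numbered pools did not in general deviate together (r from -0.267 to 0.532 over 84 miRNAs, 1 of 6 best matched to its own number). These values cannot exclude a pairing, since some same-numbered pools lie on different kinds of array. With pool number as a replicate block the differences were -0.1329, -0.0703 and 0.2384, and the block called 0 miRNAs.

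For let-7 and miR-100, r rose past the adjusted threshold with median scaling (0.9506), with the 75th percentile of detected probes (0.8177) and without normalization (0.9295). Of all pairs of tested miRNAs, 2.5%, 15.3% and 3.84% had a higher r under these settings, in the same order. With 1 pool left out, r ran from 0.2956 to 0.6798. For let-7 and miR-125 it passed with median scaling (0.882) and without normalization (0.8159), and turned negative within dsGFP (-0.001443), on arrays with over 80 detected miRNAs (-0.706), without the 2 arrays whose columns differ in form (-0.3727), with cyclic loess (-0.2667), in the deposited table (-0.006589), without dsGFP pool 6 (-0.05795) and without dsVg pool 5; leaving out single pools gave -0.3242 to 0.3235. For miR-100 and miR-125 it was positive within the other arrays (0.2783), with median scaling (0.9003), with both 75th percentiles (0.438 and 0.4381), without normalization (0.8492), with the median of the spots (0.05932) and in the deposited table (0.004561), and ran from -0.4793 to 0.3506 with 1 pool left out. The causes were not tested. Signal over background limits let-7 and miR-100 in dsVg pool 1 most.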

Other observations

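The spots of a probe lie in 6 blocks of rows and 3 column positions, and the members were brighter at the edges of the array than in its middle. Over the 12 arrays, the first and last blocks exceeded the 2 middle blocks by a median of 0.24 on the log2 scale for let-7 (0.06 to 0.52, brighter on 12 of 12 arrays), 0.21 for miR-100 (0.02 to 0.37, 12 of 12) and 0.12 for miR-125 (-0.38 to 0.26, 11 of 12, the exception holding the 1 dim spot of dsVg pool 4). Over the 33 miRNAs detected on all arrays, the median of this difference was 0.11 and the highest was that of let-7. Each probe has the same layout on every array.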
